A study of Drosophila melanogaster with 24 samples.

Results

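Chorion and vitelline membrane genes, which encode the layers of the fly eggshell, were followed across whole adult flies of both sexes. Of 10 listed genes, 9 were measured by a probe set that the platform annotation assigns to a single gene, out of 11982 genes named in that way. The 9 genes were the vitelline membrane genes Vm26Aa, Vm32E and Vm34Ca, the chorion genes Cp36 and Cp38 of the X chromosome, and the chorion genes Cp15, Cp16, Cp18 and Cp19 of chromosome arm 3L. Each had 1 such probe set, and Vm26Ab is named only.

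The eggshell is secreted by the somatic follicle cells that surround each egg chamber late in oogenesis. These cells make the inner vitelline membrane and then the chorion, with Cp36 and Cp38 transcribed before the late chorion genes of arm 3L. In Drosophila melanogaster the chorion gene clusters are copied many times over in follicle cells ahead of this transcription, and the genes are known for abundant RNA over a short window of each chamber's development. In the Release 6 gene table Cp18, Cp15, Cp19 and Cp16 follow each other on 3L with 0 other coding genes between them, and Cp36 and Cp38 adjoin the chorion genes Cp7Fa, Cp7Fb and Cp7Fc on the X. Vm26Aa lies with Vm26Ab and Vm26Ac on 2L, the arm that also holds Vm32E and Vm34Ca.

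The arrays came from a study of the nuclear receptor gene Hr96, called Dhr96 in the labels, in flies collected at 0 to 3 days of adult age and frozen whole. All groups carried the w mutation and 1 GAL4 driver. Over-expression flies were w;Act5C-GAL4/UAS:OE_Dhr96OE_35 and their controls w;Act5C-GAL4/+, while knockdown flies were w;arm-GAL4/+;UAS:RNAi_Dhr96Hp_3/+ and their controls w;arm-GAL4/+. The actin and armadillo promoters behind the 2 drivers are both active in most tissues, and each transgene was represented by 1 line. Neither control carried a UAS transgene. Every genotype and sex was sampled on 3 diet batches, preparations of 1 recipe made on different days, giving 8 groups of 3 arrays and 24 arrays in all. The labels do not say how many flies an array held or where in the age window they fell.

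Values are log2 of the deposited intensity, so a difference of 1 is a doubling, and 18769 probe sets were tested. Array medians lay between 5.74 and 6.05 on this scale. Probe set values of arrays within a group correlated at 0.974 to 0.992. Hr96 stood at 9.15 ± 0.43 (SD, n = 3) in over-expression females and 7.75 ± 0.28 in their controls, a change of 1.40 (SE 0.21, limma, adjusted p = 0.0137). In females labelled knockdown it stood at 7.98 ± 0.15 against 7.81 ± 0.21 in their controls (0.17, SE 0.21, limma, adjusted p = 0.994), so the group is called the labelled knockdown throughout. The over-expression female array of diet batch 2 stood apart from the other females. It was the lowest of 12 in 22.2% of probe sets, had 401 probe sets more than 1 below the female median, and its mean correlation with the other females was 0.959, against 0.977 to 0.985 for the rest. The results that rest on it most are also given over the other 11 female arrays.

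The first question was whether the 9 genes mark females. They were called higher in females than in males in each of the 4 genotypes, where a call is a Benjamini-Hochberg adjusted p under 0.05 over all probe sets in limma's moderated test. All 9 of 9 were called in over-expression flies, where 32.4% of probe sets were called higher in females and 46.4% in either direction. All 9 were called in the Act5C-GAL4 controls, beside 34.3% of probe sets higher in females and 49.8% in either direction. The same count held in the labelled knockdown, beside 31.2% and 48.4%, and in the arm-GAL4 controls, beside 33.1% and 49.5%. The median difference over the 9 genes was 5.42, 6.64, 6.34 and 5.92 in that order of genotypes, while the median over all probe sets lay between 0.14 and 0.21.

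Among the vitelline membrane genes, Vm26Aa ran from 7.55 to 12.72 in the 12 females, with a median of 11.81, and from 6.34 to 6.97 in the 12 males. Vm34Ca, another structural protein of the vitelline membrane, ran from 7.09 to 12.64 in females with a median of 11.40, and from 5.74 to 6.30 in males. Every female array lay above every male array for both genes. Vm32E, whose protein is also found in the endochorion, ran from 3.88 to 9.91 in females with a median of 7.72, and from 3.55 to 4.39 in males. Here the sexes overlapped on a single array, since over-expression females of diet batch 2 lay 0.52 below the highest male.

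The early chorion genes Cp36 and Cp38, structural proteins of the endochorion, separated the sexes without overlap. Cp36 ran from 9.14 to 13.34 in females with a median of 12.94 and from 4.62 to 5.79 in males. Cp38 ran from 7.94 to 13.04 with a median of 12.55 in females and from 5.13 to 6.02 in males. The 4 late chorion genes, which also encode structural chorion proteins, did the same. Cp15 had the narrowest female range of the 9, from 11.54 to 13.64 with a median of 12.95, against 6.31 to 7.26 in males. Cp16 ran from 8.42 to 12.95 in females with a median of 11.71, against 4.71 to 5.50 in males. Cp18 ran from 8.82 to 13.27 with a median of 12.23, against 5.78 to 6.62. Cp19 ran from 9.04 to 13.52 with a median of 12.82, against 4.42 to 5.85. A complete separation of the sexes thus held for 8 of 9 genes, beside 20.7% of all probe sets with every female above every male.

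The fitted differences between the sexes ran from 3.31 for Vm32E in the arm-GAL4 controls (SE 1.03, limma, adjusted p = 0.0103) to 8.26 for Cp19 in the labelled knockdown (SE 0.67, limma, adjusted p = 3.61e-10). Males held Vm32E above only 7.73% to 20.0% of all probe sets, and no detection calls were used here, so these differences are given without a fold. The vitelline genes had the smallest differences of the 9 in every genotype. Vm32E was the gene whose call could be lost by leaving out 1 array. Its difference was 2.20 (limma, adjusted p = 0.0761) without the over-expression females of diet batch 3 and 2.25 (limma, adjusted p = 0.0819) without the arm-GAL4 control females of diet batch 3. Without the over-expression females of diet batch 2 the difference in that genotype was 5.22 for Vm32E. In whole flies, fewer cells of a type and less RNA per cell cannot be told apart, and this holds for each comparison that follows.

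**Figure D1:**
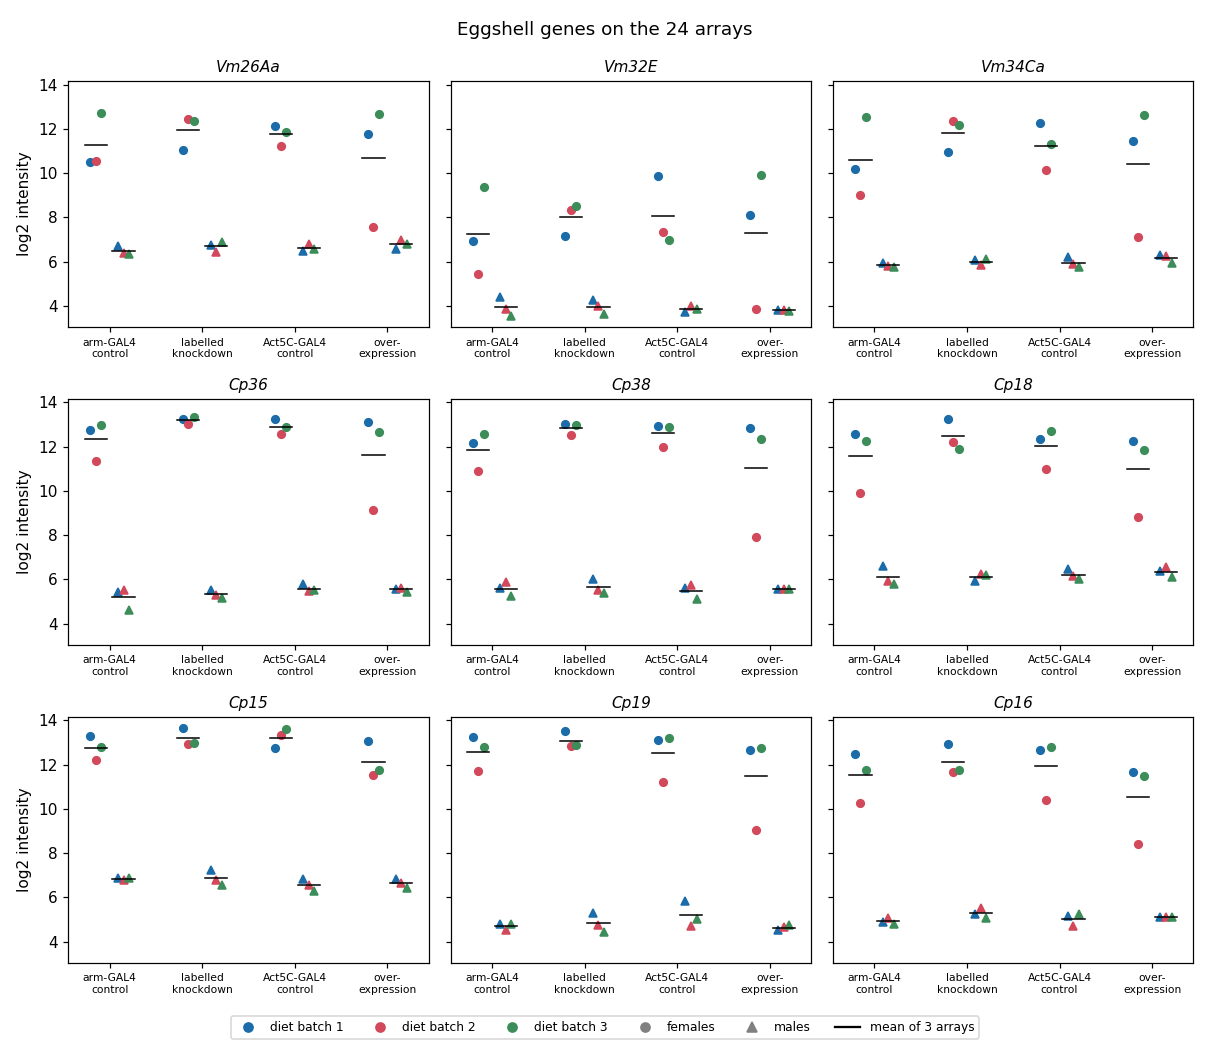
Log2 intensity of the 9 eggshell genes (1 panel each) on the 24 arrays, by genotype, with circles for females, triangles for males, colours for diet batches and lines for the mean of 3 arrays. Females lie above males in every panel except for 1 female array of Vm32E at 3.88, and the female points spread far more than the male points.

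Females of 1 genotype differed from each other by more in these genes than in nearly all others. The SD within genotype among females was 1.57 for Vm26Aa, 2.03 for Vm32E and 1.84 for Vm34Ca, 1.19 for Cp36 and 1.45 for Cp38, and 0.574 for Cp15. It was 1.32 for Cp16, 1.32 for Cp18 and 1.28 for Cp19. The median over all probe sets was 0.194. Each of the 9 genes exceeded at least 97.8% of probe sets in this spread, and at least 97.3% without the over-expression array of diet batch 2. In males the same SD ran from 0.172 for Vm34Ca to 0.376 for Cp19, beside a median of 0.181 over all probe sets. On the linear scale the highest female value was 4.30 times the lowest for Cp15 and 47.0 times the lowest for Vm34Ca, or 3.65 and 12.5 times without that array. The lowest female value of Vm32E lay within the male range, so no such ratio is given for it. Without the same array the SD over the remaining 11 females was between 0.553 for Cp36 and 1.39 for Vm32E.

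The female variance of each gene was divided among genotype, diet batch and the remainder. Diet batch carried the largest of these shares for the late chorion genes Cp16 (61.1%), Cp18 (57.4%) and Cp19 (52.2%). It was also the largest share for Cp36 and Cp38, at 39.2% and 41.1%. For the vitelline membrane genes the remainder was the largest share, at 53.0% for Vm26Aa, 58.6% for Vm32E and 45.5% for Vm34Ca. Cp15 differed from its 3 neighbours in this division, with 46.9% by genotype and 18.9% by diet batch. Over the 11 arrays without the outlying over-expression array, each share was taken as what a factor added to the other. Diet batch was again the largest for Cp16 (72.9%), Cp18 (57.4%), Cp19 (64.4%) and Cp38 (45.5% beside 41.2% by genotype). For Cp36 it was nearly level with genotype, at 39.1% and 38.1%. The remainder stayed the largest for the vitelline genes and became so for Cp15, at 49.5% beside 39.0% by genotype. These shares describe the arrays and carry no test. They are not scaled for the degrees of freedom of each part, of which the remainder has the most.

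The comparison of over-expression with its Act5C-GAL4 control asked whether added Hr96 moved eggshell RNA in females. None of the 9 genes was called, 0 of 9 beside 0.293% of all probe sets, although the fitted difference was below 0 for each of them. The median difference was -1.09, beside -0.04 over all probe sets, and the range was -1.56 for Cp38 to -0.75 for Vm32E. Only Cp15 had an unadjusted p under 0.05, beside 2379 of the 18769 probe sets. This fit had no diet batch term, so spread between batches entered its SEs and p-values. Over the alternatives run, diet batch as a block included, the smallest adjusted p of the 9 was 0.119 for Cp15 (limma).

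Among the vitelline membrane genes, Vm26Aa read 11.74, 7.55 and 12.69 in over-expression females of diet batches 1, 2 and 3, and 12.14, 11.22 and 11.87 in the control females. Vm32E read 8.12, 3.88 and 9.91 against 9.87, 7.33 and 6.97 in the same order. Vm34Ca read 11.46, 7.09 and 12.64 against 12.24, 10.16 and 11.33. Over-expression females were the lower in batches 1 and 2 and the higher in batch 3 for all 3 genes, so the groups overlapped. The fitted difference for Vm26Aa was -1.09 (SE 1.04, limma, adjusted p = 0.665). For Vm34Ca it was -0.84 (SE 1.22, limma, adjusted p = 0.789), and for Vm32E -0.75 with a 95% interval from -3.68 to 2.17.

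For the early chorion pair, Cp36 read 13.11, 9.14 and 12.64 in over-expression females and 13.23, 12.55 and 12.89 in the controls. Cp38 read 12.85, 7.94 and 12.34 against 12.93, 11.99 and 12.87. In both genes over-expression females lay below the control of their own batch each time, with differences between -0.53 and -0.08 outside diet batch 2. The fitted difference for Cp36 was -1.26 (SE 0.79, limma, adjusted p = 0.495) and for Cp38 -1.56 (SE 0.96, limma, adjusted p = 0.489). Without the batch 2 over-expression array, but with its control kept, these became -0.01 and -0.0031. With every batch 2 array left out they were -0.18 and -0.31.

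Of the late chorion genes, Cp16 read 11.68, 8.42 and 11.50 in over-expression females and 12.66, 10.39 and 12.78 in the controls. Within diet batches its difference was -0.99, -1.97 and -1.28, the most even of the 9 genes over the batches in size and sign. The fitted difference was -1.41 (SE 0.87, limma, adjusted p = 0.490), and -0.36 without the batch 2 over-expression array. That last fit keeps the low batch 2 control, and with every batch 2 array left out the difference was -1.14. Cp15 read 13.06, 11.54 and 11.78 against 12.73, 13.32 and 13.60, with the over-expression females higher in batch 1 and lower in the other two. Its difference of -1.09 (SE 0.39) had a 95% interval from -1.94 to -0.25, and the limma adjusted p was 0.320. Cp18 read 12.25, 8.82 and 11.84 against 12.36, 10.99 and 12.72, and Cp19 read 12.64, 9.04 and 12.77 against 13.12, 11.23 and 13.21. Both had fitted differences close to that of Cp15, -1.05 (SE 0.87) and -1.04 (SE 0.85). Over-expression females lay below the control of their own batch in all 3 batches for Cp16, Cp18, Cp19, Cp36 and Cp38, 5 of the 9 genes, as they did for 17.7% of all probe sets.

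The single over-expression array of diet batch 2 decided much of this comparison. Within diet batches the median difference over the 9 genes was -0.40, -3.07 and -0.44. Without that array the fitted median was 0.03, with Vm26Aa at 0.47, Vm32E at 0.96, Vm34Ca at 0.81, Cp18 at 0.03 and Cp19 at 0.18 on the other side of 0, while Cp15 stayed at -0.80. That fit has no diet batch term and keeps the batch 2 control array. With every batch 2 array left out the median was -0.31, with Cp18 at -0.49 and Cp19 at -0.46. Vm26Aa, Vm32E and Vm34Ca were then at 0.21, 0.59 and 0.27. On the batch 2 over-expression array the summed intensity of 14 other eggshell genes was also the lowest of the over-expression females, at 11.26 on the log2 scale against a highest of 13.12.

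The comparison of the labelled knockdown with its arm-GAL4 control gave 0 of 9 calls in females, beside 0.0213% of all probe sets. The fitted difference was above 0 for each gene, with a median of 0.76 beside 0.0021 over all probe sets and a range from 0.41 for Cp15 to 1.24 for Vm34Ca. Without the arm-GAL4 control array of diet batch 2 the median was 0.14. Every adjusted p was 0.994 (limma). None of the 9 unadjusted p-values was under 0.05, while 634 of the 18769 probe sets had one. Hr96 itself did not pass the test in this comparison.

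Vm26Aa read 11.06, 12.45 and 12.35 in the labelled knockdown females of diet batches 1, 2 and 3, and 10.52, 10.55 and 12.72 in the arm-GAL4 control females. Vm32E read 7.17, 8.34 and 8.51 against 6.92, 5.45 and 9.37, and Vm34Ca read 10.94, 12.35 and 12.18 against 10.18, 9.00 and 12.55. For these vitelline genes the labelled knockdown was the higher in batches 1 and 2 and the lower in batch 3. The largest fitted difference of the 9, that of Vm34Ca, had a 95% interval from -1.40 to 3.89.

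Cp36 read 13.25, 13.03 and 13.34 in the labelled knockdown and 12.74, 11.35 and 12.98 in the control. Cp38 read 13.04, 12.54 and 13.00 against 12.15, 10.90 and 12.56, with a narrow overlap. The fitted differences were 0.85 (SE 0.79) for Cp36 and 0.99 (SE 0.96) for Cp38. Among the late genes Cp15 read 13.64, 12.91 and 12.98 against 13.29, 12.22 and 12.80. Cp16 read 12.95, 11.65 and 11.75 against 12.50, 10.28 and 11.76. The groups overlapped in both of these late genes. Cp18 read 13.27, 12.22 and 11.90 against 12.55, 9.91 and 12.24, and Cp19 read 13.52, 12.85 and 12.88 against 13.24, 11.69 and 12.79. The labelled knockdown was the higher in all 3 diet batches for Cp15, Cp19, Cp36 and Cp38, 4 of the 9 genes, as it was for 18.1% of all probe sets. Within diet batches the median difference over the 9 genes was 0.51, 1.68 and -0.01. Without the arm-GAL4 control array of diet batch 2 the fitted difference was -0.14 for Vm32E and -0.01 for Cp16. With every batch 2 array left out it was -0.30 for Vm32E and 0.22 for Cp16.

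**Figure D2:**
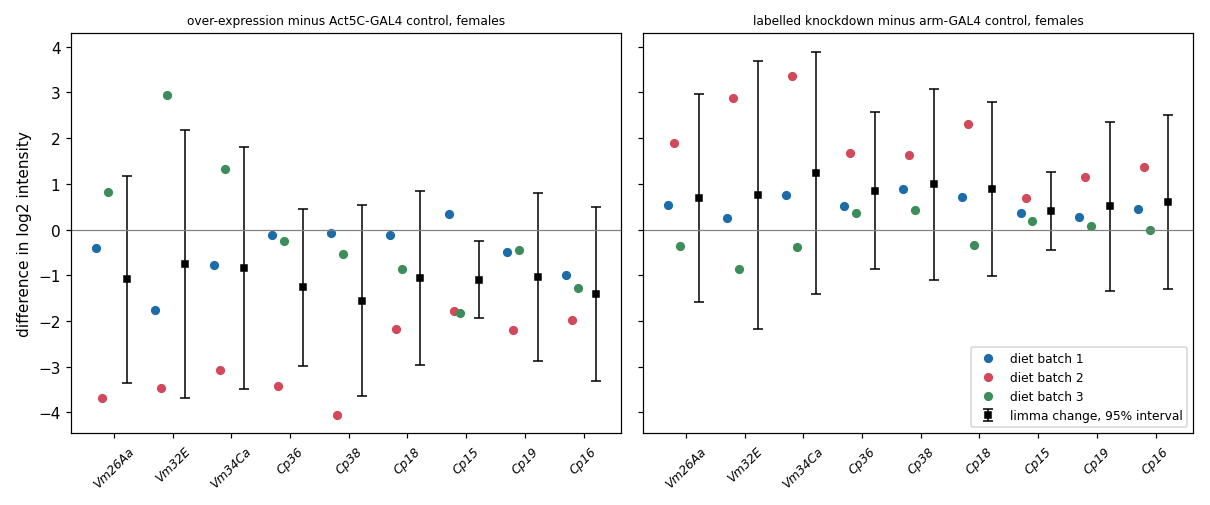
Difference in log2 intensity between over-expression and Act5C-GAL4 control females (left) and between labelled knockdown and arm-GAL4 control females (right) for the 9 genes, with coloured points for the 3 diet batches and black squares for the limma change with its 95% interval. The batch 2 points lie farthest from 0 for most genes, down to -4.06 for Cp38 on the left and up to 3.35 for Vm34Ca on the right, and every interval but that of Cp15 on the left spans 0.

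The 2 changes were also set against each other. The over-expression change minus the labelled knockdown change had a median of -1.95 and was below 0 for each gene, with 0 of 9 called beside 0.048% of all probe sets. Cp19, Cp36 and Cp38 lay below the control with over-expression and above it in the labelled knockdown in all 3 diet batches, as did 5.33% of all probe sets. The adjusted p-values ran from 0.377 for Cp15 to 0.761 for Vm32E (limma). The median was -0.86 without the over-expression array of diet batch 2, and -0.64 with every batch 2 array left out. An F test for any difference among the 4 female genotypes called 0 of 9, beside 1.92% of all probe sets, with adjusted p-values from 0.254 for Cp15 to 0.959 for Vm32E (limma).

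The 2 driver lines without an Hr96 transgene were compared as well. Act5C-GAL4 control females differed from arm-GAL4 control females by a median of 0.48 over the 9 genes, from -0.06 for Cp19 to 0.81 for Vm32E, with 0 of 9 called beside 0.107% of all probe sets. Leaving out 1 array moved this median between -0.09, without the arm-GAL4 control array of diet batch 2, and 0.97, without the Act5C-GAL4 control array of that batch. Within diet batches Vm32E differed by 2.95, 1.88 and -2.41. The sign of the vitelline difference between the controls therefore turned in batch 3. This comparison shares each control with one of the transgene comparisons above.

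In males the 9 genes stayed within 0.56 of their controls on the fitted scale. The over-expression comparison called 0 of 9 beside 1.18% of probe sets, and the labelled knockdown comparison called 0 of 9 beside 0.0266%. In each, 1 gene had an unadjusted p under 0.05, beside 2680 and 426 of the 18769 probe sets in that order. Cp19 differed by -0.56 in over-expression males (SE 0.25, limma, adjusted p = 0.335), and Cp16 by 0.36 in labelled knockdown males (SE 0.15, limma, adjusted p = 1.00). The other differences in males lay between -0.08 and 0.23.

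Diet batch was tested across all 12 females with genotype as a covariate. None of the 9 genes was called for any difference among the batches, beside 0.107% of probe sets. An unadjusted p under 0.05 was seen for 6 of the 9, and for 1359 of the 18769 probe sets. Cp16 came nearest with an adjusted p of 0.0909, followed by Cp18 at 0.175 (limma). The vitelline gene Vm26Aa and the late gene Cp15 had adjusted p-values of 0.737 and 0.786.

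Against diet batch 1, batch 2 had lower fitted levels of each gene, with a median of -1.77 beside 0.01 over all probe sets. None was called, 0 of 9 beside 0.0639% of probe sets. The late genes other than Cp15 differed most. Cp16, Cp18 and Cp19 differed by -2.26 (SE 0.36), -2.12 (SE 0.43) and -1.93 (SE 0.45), with limma adjusted p-values of 0.0787, 0.151 and 0.249. Cp36 and Cp38 differed by -1.57 (SE 0.50) and -1.90 (SE 0.60). Vm32E differed by -1.77, Vm34Ca by -1.56 and Vm26Aa by -0.92, with SEs of 0.98, 0.82 and 0.76. Cp15 differed least, by -0.68 (SE 0.30).

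Genotype by genotype, the batch 2 minus batch 1 difference of Cp16 was -3.25 in over-expression females, -2.27 in the Act5C-GAL4 controls, -2.21 in the arm-GAL4 controls and -1.30 in the labelled knockdown. Cp18, Cp19, Cp36 and Cp38 were also lower in batch 2 in all 4 genotypes, as were 7.74% of all probe sets. The smallest of these differences fell in the labelled knockdown, at -0.23 for Cp36. The vitelline genes did not share this order, since in labelled knockdown females they were higher in batch 2, by 1.39 for Vm26Aa, 1.16 for Vm32E and 1.41 for Vm34Ca. Cp15 was 0.60 higher in batch 2 in the Act5C-GAL4 controls and lower in the other genotypes.

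Calls for the late genes turned on single arrays and on how arrays were weighted. Without the batch 2 labelled knockdown array, Cp16 differed between batches 2 and 1 by -2.70 (limma, adjusted p = 0.00976) and Cp18 by -2.64 (adjusted p = 0.0306), and 2 of 9 genes were called. Without the batch 2 over-expression array, which stood apart, Cp16 differed by -1.88 (limma, adjusted p = 0.0495) and was the 1 gene called, while the median of the 9 genes was -0.82. With array weights it was Cp16 at -2.12 (limma, adjusted p = 0.0132) and Cp18 at -2.00 (adjusted p = 0.0413). Of all 18769 probe sets, 84 were called in this comparison with array weights, and 0 to 52 when 1 array was left out.

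Diet batch 3 had higher fitted levels than batch 2 for each gene, with a median of 1.76 and 0 of 9 called beside 0.117% of probe sets. This comparison shares the batch 2 arrays with the one before it, and without the over-expression array of that batch the median was 1.10. Cp16 differed by 1.76 (SE 0.36, limma, adjusted p = 0.101), Cp19 by 1.71 (SE 0.45) and Cp18 by 1.69 (SE 0.43). Vm34Ca differed by 2.53 (SE 0.82) and Vm32E by 2.44 (SE 0.98), more than the late genes and with wider errors. Cp15, Cp16, Cp19, Cp36 and Cp38 were higher in batch 3 in all 4 genotypes, as were 7.16% of all probe sets. Cp15 again differed least, by 0.29 (SE 0.30).

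Between diet batches 3 and 1 the fitted differences were smaller, with a median of -0.12 and 0 of 9 called beside 0.00533% of probe sets. Leaving out 1 array moved this median between -0.40, without the over-expression array of batch 3, and 0.34, without that of batch 1. In the fit over all genotypes the vitelline and the chorion genes lay on opposite sides of 0. The vitelline genes were higher in batch 3 by 1.04 for Vm26Aa, 0.97 for Vm34Ca and 0.67 for Vm32E, while Cp15, Cp16, Cp18 and Cp19 differed by -0.39, -0.50, -0.43 and -0.22. Cp36 and Cp38 differed by -0.12 and -0.05. The Act5C-GAL4 controls did not share the vitelline direction, with batch 3 minus batch 1 differences of -0.27 for Vm26Aa, -2.90 for Vm32E and -0.92 for Vm34Ca. The smallest unadjusted p among the 9 was 0.195, for Cp16.

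**Figure D3:**
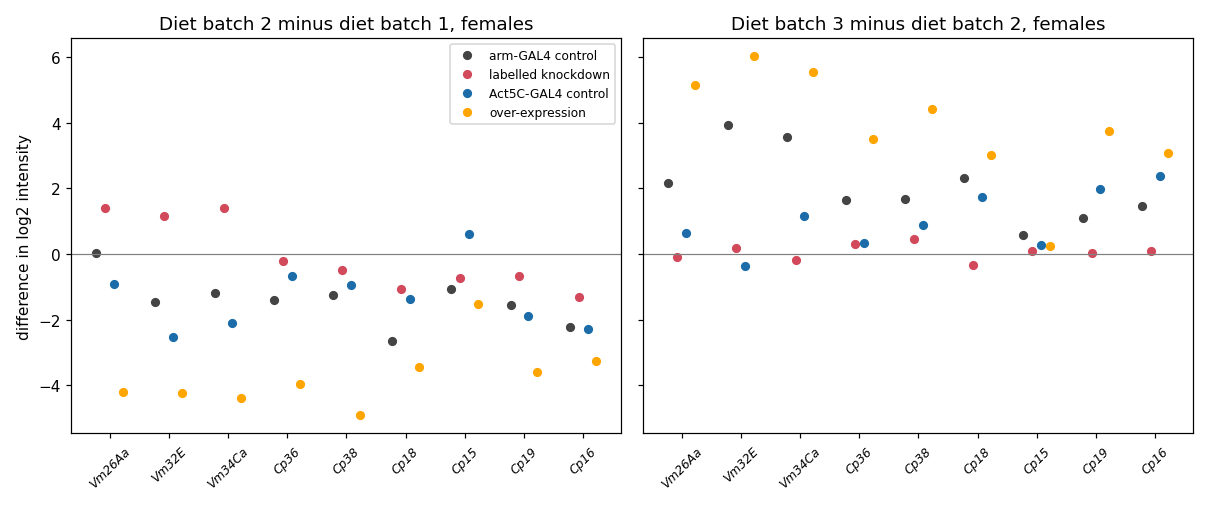
Difference in log2 intensity between diet batches 2 and 1 (left) and between diet batches 3 and 2 (right) in females, for the 9 genes and 4 genotypes (colours). On the left Cp16, Cp18, Cp19, Cp36 and Cp38 lie below 0 in all 4 genotypes while the vitelline genes of the labelled knockdown lie above 0, and over-expression reaches -4.91 for Cp38.

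The classes did not move as 1 block from array to array. To show this, each gene was centred on its median over the 12 females and the median of each class was taken on each array. On over-expression females of diet batch 2 the vitelline, early chorion and late chorion classes stood at -4.26, -4.21 and -3.35, and this array had the lowest value of all 9 genes. On arm-GAL4 control females of diet batch 2 they stood at -2.27, -1.62 and -1.28. These were the 2 arrays with all 9 genes below their female median.

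Other arrays set the classes apart. On arm-GAL4 control females of diet batch 1 the vitelline class stood at -1.22 while the late chorion class stood at 0.38, a gap of 1.60. On labelled knockdown females of diet batch 1 the gap between these classes was 1.42 in the same direction. On over-expression females of diet batch 3 it was -1.55, with the vitelline class at 1.25 and the late class at -0.30, and on arm-GAL4 control females of diet batch 3 it was -1.17. The Act5C-GAL4 controls did not share this order, with gaps of -0.63 in batch 1 and 0.64 in batch 3. The class medians of Cp36 and Cp38 ranged from -4.21 to 0.43.

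**Figure D4:**
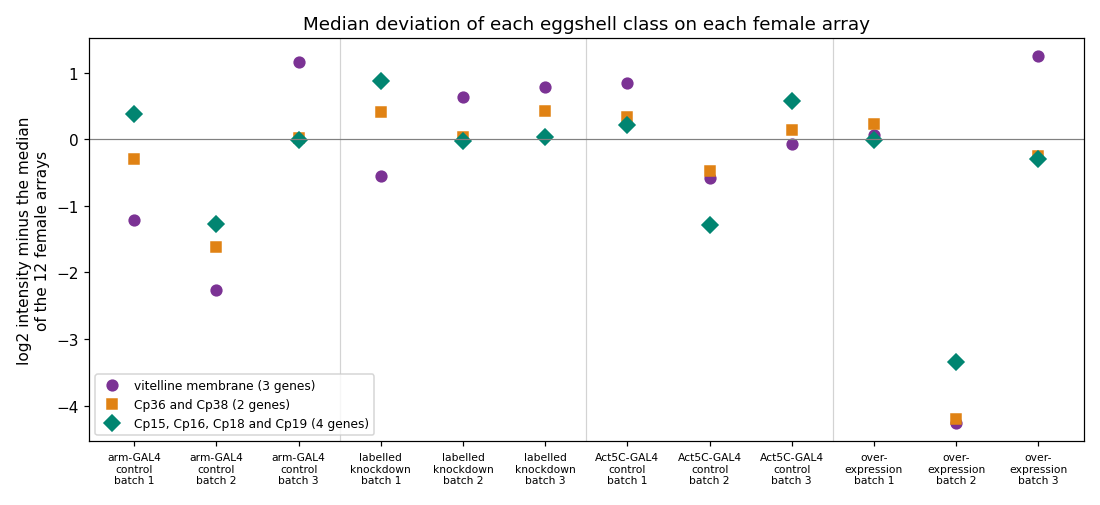
Median deviation of the vitelline (3 genes), early chorion (2 genes) and late chorion (4 genes) classes from the median of 12 female arrays, in log2 intensity, on each female array. All classes are lowest on over-expression batch 2, at -4.26, -4.21 and -3.35, and the vitelline class leaves the late class by up to 1.60 on the other arrays.

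Pairwise correlations over the same 12 female arrays described the same order. All pairs share those arrays, and the array that stood apart raised the values, so they are also given over the remaining 11. Cp36 and Cp38, neighbours on the X, had a Pearson r of 0.994 over 12 arrays and 0.969 over 11. Cp16 and Cp19 had 0.967 and 0.944, and Vm26Aa and Vm34Ca had 0.965 and 0.947. The 12 pairs of a late chorion gene with a vitelline gene ran from 0.184 to 0.803 over 12 arrays and from -0.369 to 0.513 over 11. Cp15 followed its 3 neighbours on 3L less closely than they followed each other, at 0.630 to 0.737 over 12 arrays and 0.279 to 0.544 over 11. The pairs among Cp16, Cp18 and Cp19 kept 0.887 to 0.944 over 11 arrays.

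Some genes outside the list followed the 9 genes closely. Likeness was the Pearson r over 12 females to the mean of the standardized member values, among 3289 probe sets that name 1 gene and pass a mean log2 of 6 and an SD of 0.3 in females. The highest values were 0.960 for CG13083, 0.950 for CG4009 and 0.949 for CG11381. CG15570, CG13114, CG13084, CG15571 and CG13113 followed at 0.943, 0.941, 0.918, 0.890 and 0.887. Femcoat, a protein of chorion assembly, had 0.922, and the cadherin gene Cad74A had 0.885. Without the array that stood apart these r values lay between 0.769 for Femcoat and 0.911 for CG4009. Femcoat, CG13084, CG13113 and CG15571 then ranked 39, 26, 25 and 13, so the choice of genes named here depended in part on that array. CG13083 ran from 6.27 to 11.11 in females and from 4.93 to 5.77 in males.

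Of 18 other eggshell genes, 14 were measured, by 17 probe sets. In females 0 of the 17 were called for over-expression, for the labelled knockdown or between diet batches. Of all probe sets 0.293% were called for over-expression, 0.0213% for the labelled knockdown and at most 0.117% between diet batches. The medians of the 17 were -0.64 for over-expression and 0.49 for the labelled knockdown. Their medians were -0.22 for batch 2 against 1, 0.10 for batch 3 against 1 and 1.13 for batch 3 against 2. Without the over-expression array of diet batch 2 the median was 0.03 for over-expression, -0.16 for batch 2 against 1 and 0.64 for batch 3 against 2. In that setting Femcoat was called between batches 2 and 1 at -2.00 (SE 0.33, limma, adjusted p = 0.0478). Leaving out 1 array at a time called 0 to 52 of all probe sets in that comparison. The widest female ranges belonged to Cp7Fc, a chorion gene of the X cluster, to Femcoat and to dec-1, which encodes endochorion proteins. Femcoat read 9.02, 4.89 and 8.76 in over-expression females of diet batches 1, 2 and 3, and 9.66, 6.98 and 9.66 in their controls. It was low in batch 2 in both groups. Both dec-1 and Femcoat were lowest on the over-expression array of diet batch 2, at 5.64 and 4.89, whereas Cp7Fc was lowest in arm-GAL4 control females of diet batch 2, at 5.21. The F test among genotypes called both probe sets of Pxd, a peroxidase of the eggshell, with adjusted p-values of 0.0129 and 0.0196 (limma), beside 1.92% of all probe sets. The first of these read 7.26, 7.65 and 6.12 in over-expression females and 5.06, 5.05 and 4.42 in their controls, so this gene was highest on the female array where the 9 genes were lowest. It did not separate the sexes, with 3.66 to 7.74 in males.

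Markers of other cells were read on the same female arrays as median deviations from the female median. The 10 ovary germline genes stood at -0.72 on the over-expression array of diet batch 2 and at 0.34 on the arm-GAL4 control array of that batch, the second lowest by the median of the 9 genes. Among them otu, exu and nos had the widest ranges, and otu read 8.16 on the over-expression array against 9.54 or more on the other females. Not all of the list was low there, since grk read 7.88 beside a female median of 7.68, and vas 4.49 beside 4.52. Nor was exu confined to females, as a probe set of it ran from 11.69 to 12.49 in males and from 4.81 to 5.66 in females. The median of the 4 yolk genes, of which Yp2, yl and Yp3 had the widest ranges, stood at -0.79 on both the over-expression and the arm-GAL4 control array of diet batch 2. Different genes were low on each. Yp3 read 13.24 and yl 8.99 on the over-expression array, beside female medians of 13.28 and 10.06. On the arm-GAL4 control array Yp3 read 12.45 and yl 10.34. The 8 measured genes for chorion gene amplification, among them chif, dup and Orc2, stood at -0.89 on that over-expression array and 0.40 on that control array. The 3 measured larval fat body genes, Lsp2, Fbp1 and Fbp2, stood at 2.58, 2.04 and 0.40 on the over-expression females of batches 1, 2 and 3 and between -0.37 and 0.43 on the other females. The part of these markers in the eggshell differences was not tested. For regulators of follicle cells, 9 genes with br, Ets97D and Egfr the widest in range, the list median lay between -0.09 and 0.07 on all female arrays. Single genes moved more, and in both directions. On the over-expression array of diet batch 2, Ets97D read 6.73 beside a female median of 7.59. A probe set of ct read 5.98 there beside a female median of 5.22. The 10 male reproductive tract genes, among them Acp26Aa, SP and Mst84Da, were called lower in females in every genotype, with medians from -7.69 to -7.48. Of all probe sets 46.4% to 49.8% were called between the sexes in either direction. These 10 genes lay between 3.14 and 6.92 in females and between 8.38 and 13.19 in males, and their medians stood between -0.21 and 0.42 on the female arrays. None of these 6 lists had a called gene in a female genotype or diet batch comparison, where at most 1.92% of all probe sets were called.

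**Figure D5:**
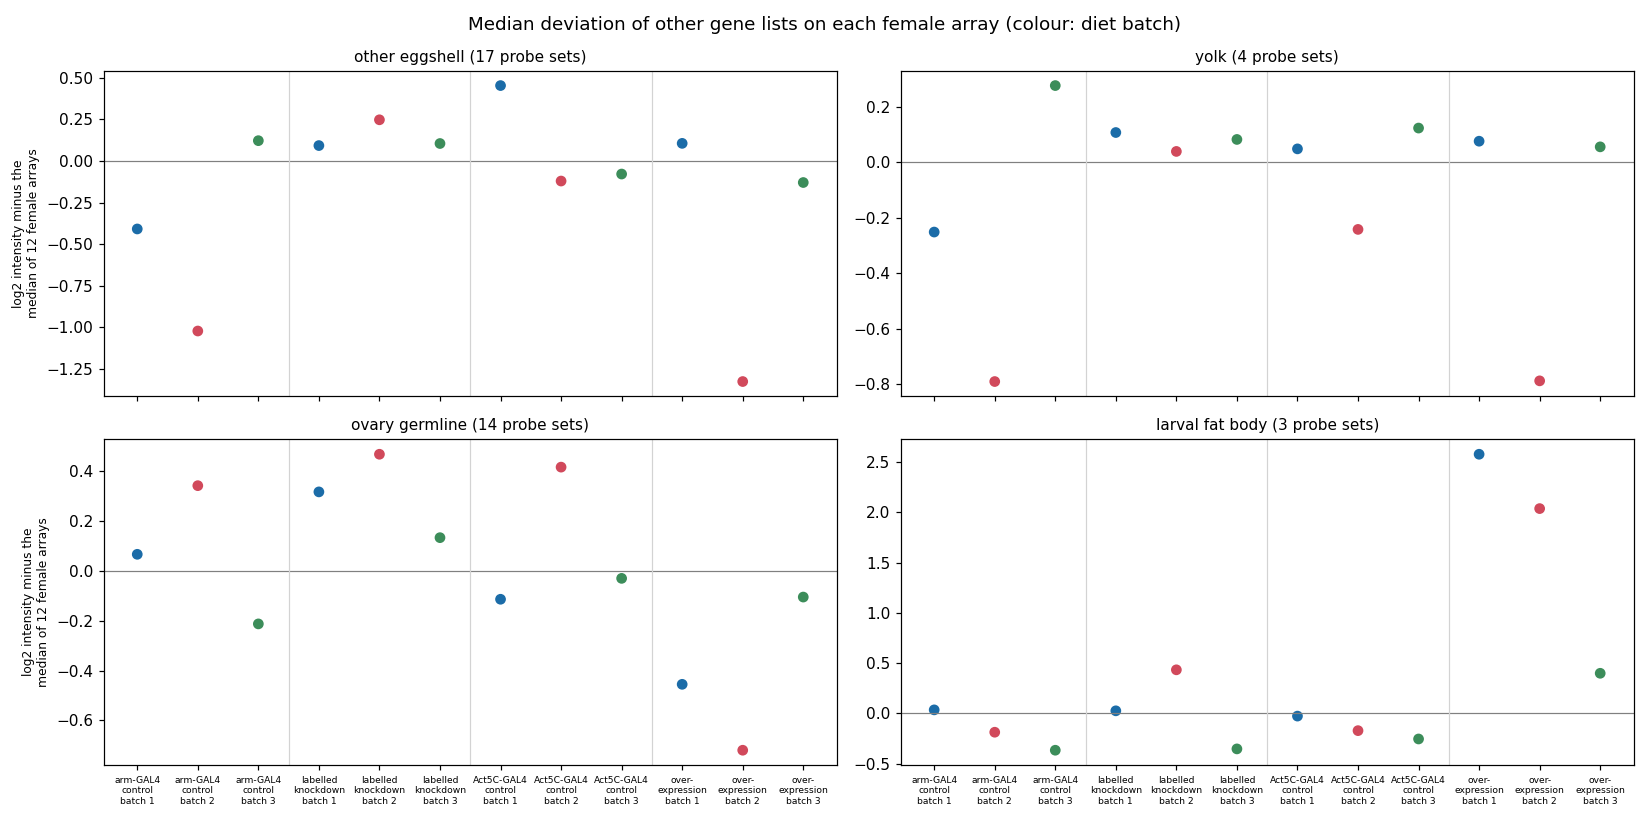
Median deviation from the median of 12 female arrays, in log2 intensity, of other eggshell, yolk, ovary germline and larval fat body probe sets on each female array, coloured by diet batch. The eggshell and yolk panels are lowest on diet batch 2 of over-expression and of the arm-GAL4 control, the germline panel is lowest on over-expression batches 2 and 1, and larval fat body genes reach 2.58 on over-expression batch 1.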

How the data were processed

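RNA of whole flies was hybridised to 24 Affymetrix arrays, 3 per genotype and sex. The deposited intensity values were made by the authors with RMA, per the submitters' processing notes, and the sources used here give neither its version nor any later scaling. The values were on a linear scale, from 5.2 to 20754, although log2 values had been planned for, so they were put on the log2 scale without a pseudocount. All 183 control probe sets were left out. Arrays carry no counts or depth, and 3 arrays per group limit the precision.

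Female comparisons were fitted with limma 3.58.1 (R 4.3.3, lmFit and eBayes) on the 12 female arrays, sex comparisons on all 24, and Benjamini-Hochberg adjustment ran over all 18769 probe sets, two-sided. The spread in the sex comparisons pools both sexes. Genotype and sex comparisons had no diet batch term outside the block alternatives. The pipeline was tested on simulated data. Of the probe sets, 13646 name 1 gene, 402 several and 4721 none here. The labels tie each replicate number to a diet batch, so the numbers pair arrays. Deviations of same-numbered female arrays correlated at -0.07 to 0.59 over 9 compared pairs, 5 of them over 0.1. No 2 arrays shared more than 24 equal values in place. The labels call the arrays of a group biological replicates, and whether flies came from separate cultures is not given.

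The 9 genes and 7 other lists were chosen with earlier results of these data known. Of the other lists, genes called outside the sex comparisons were named and otherwise the 3 with the widest female range. Sex calls were counted in the text for the male reproductive tract list alone. Alternatives covered the arrays fitted, diet batch as a block, scaling, an offset of 16, a mean log2 of at least 5, array weights, the variance model, a single probe set for each gene, and dropping single arrays. Leaving out diet batch 2, the block with array weights, and the variance shares, spread and other eggshell medians without 1 array were added after seeing the data. Sequences were not used here, and gene positions served only for the chromosome arm and order of genes.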

Additional observations from a re-analysis of the deposited data

Results flagged for a closer look

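For 3 chorion genes the 2 transgenes went opposite ways in females in each diet batch: over-expression lay below its Act5C-GAL4 control and the labelled knockdown above its arm-GAL4 control in all 3 batches, as did 5.33% of all probe sets. The over-expression change minus the labelled knockdown change was -2.11 for Cp36 (SE 1.11, limma, adjusted p = 0.434), -2.55 for Cp38 (SE 1.36, adjusted p = 0.437) and -1.54 for Cp19 (SE 1.20, adjusted p = 0.582), so the test of the difference itself was not passed. Without the over-expression array of diet batch 2 these differences were -0.86 for Cp36, -0.995 for Cp38 and -0.32 for Cp19, with limma adjusted p-values of 0.658, 0.657 and 0.907. Hr96 was not lower in the labelled knockdown, and the largest differences of these genes lay in diet batch 2, at -3.41, -4.06 and -2.19 for over-expression.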

How the results depend on the processing

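In each genotype comparison of females, 0 of 9 genes were called under every alternative run. With diet batch as a replicate block the median differences, -1.09 for over-expression and 0.76 for the labelled knockdown, cannot move, since each genotype has 1 female array per batch. Only the SEs and p-values can change, and there were 0 calls in each comparison. The block changed no other call. Called genes appeared among the 9 only in the diet batch tests: array weights called 2 for any difference, 2 for batch 2 against 1 and 1 for batch 3 against 2. Leaving out 1 array called 0 to 2 genes in each of these tests. Over all probe sets it called 0 to 52, 0 to 52 and 2 to 103, in the same order of tests. The highest counts over the other alternatives were 171, 84 and 555.

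Signs turned for genes that were not called. For over-expression Vm32E was 0.44 with array weights, and without diet batch 2 Vm26Aa was 0.21, Vm32E 0.59 and Vm34Ca 0.27. With the block and array weights together Vm32E was 0.22 and Vm34Ca 0.19. For the labelled knockdown without diet batch 2 Vm32E was -0.30. Between diet batches 2 and 1 Vm26Aa was 0.0056 with array weights. Leaving out 1 array at a time, the over-expression differences ran from -2.10 to 0.47 for Vm26Aa, -2.06 to 0.96 for Vm32E, -1.96 to 0.81 for Vm34Ca, -1.69 to 0.026 for Cp18 and -1.68 to 0.18 for Cp19. The labelled knockdown differences ran from -0.14 to 1.82 for Vm32E and -0.014 to 1.09 for Cp16, and batch 2 against 1 from -1.65 to 0.15 for Vm26Aa. In the sex comparisons 8 or 9 genes were called when 1 array was left out, beside 8150 to 9611 of all probe sets. The cause of these changes was not tested.

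The number of called probe sets over the whole array for over-expression was 55, against 110 with the block, 109 with array weights, 164 with all 24 arrays and 12 with the compared arrays alone. For batch 2 against 1 it was 12, against 84 with array weights and 0 with 16 added before log2, and for batch 3 against 2 it was 22, against 555 with array weights. The 12 female arrays, 3 per group, and the wide spread of these genes limit what could be called. In fits without a diet batch term the SE of the genotype differences ran from 0.389 to 1.35.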
